A study of Drosophila melanogaster with 2 samples.

Results

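The genes described here are 8 relatives of tai (Taiman) that encode transcription factors with a bHLH and a PAS domain: sima, trh, sim, ss, dysf and Clk, and the partner genes tgo and cyc. They were chosen by name, as 8 of the 13945 protein-coding genes on the 6 main chromosome arms. Each was examined over its annotated gene span plus 5 kb on each side. Chromatin was immunoprecipitated with an antibody against GFP from whole larvae in the wandering stage of the third instar, with both sexes mixed. The larvae came from 1 transgenic line, given as strain tai-GFP, whose tai product carries GFP at the C terminus (the labels also write tai-eGFP), and the labels leave their age as unknown. All larvae belong to a single group, sampled as biological replicates 1 and 3 (n = 2), so no genotype, stage or treatment is compared. Both replicates were called against the same control alignment. In whole larvae, strong binding in few cells and weak binding in many cannot be told apart. No file measures expression, so whether these genes are transcribed in the larvae is unknown.

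Proteins with bHLH and PAS domains bind DNA as pairs. One partner is usually limited to a tissue, a time or a stimulus, and the other is present broadly. Tgo, the fly ARNT, is the broad partner of Sima, Trh, Sim, Ss and Dysf, while Cyc pairs with Clk in the circadian clock. Taiman has the same domains but is known as a coactivator, of the ecdysone receptor among others. The question taken up here is how much of the recovered Taiman signal lay at the genes of its relatives.

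IDR summits lay at 3 of the 8 genes, sima, sim and dysf. An IDR peak is one that passed the authors' irreproducible discovery rate step, and its summit is the position of highest signal. sima held 4 summits, sim 2 and dysf 1. tgo, trh, ss, Clk and cyc held none. Over all protein-coding genes the same rule was met by 18.5%. This rate depends strongly on the length of the window, so it was also taken by length class. It was 13.1% for windows of 10 to 15 kb, which include tgo (13.25 kb) and cyc (12.2 kb). It was 39.6% for windows of 20 to 40 kb, which hold Clk, sim, dysf, trh and ss, 2 of which had a summit. It was 49.7% among the 199 genes with windows of 60 to 100 kb, which include sima (73.5 kb). With 2 of 5 genes in the middle class, the family lay near the rate of genes of its size. The design has no second condition, and the genes were listed by name, so no test was made of these counts.

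**Figure D1:**
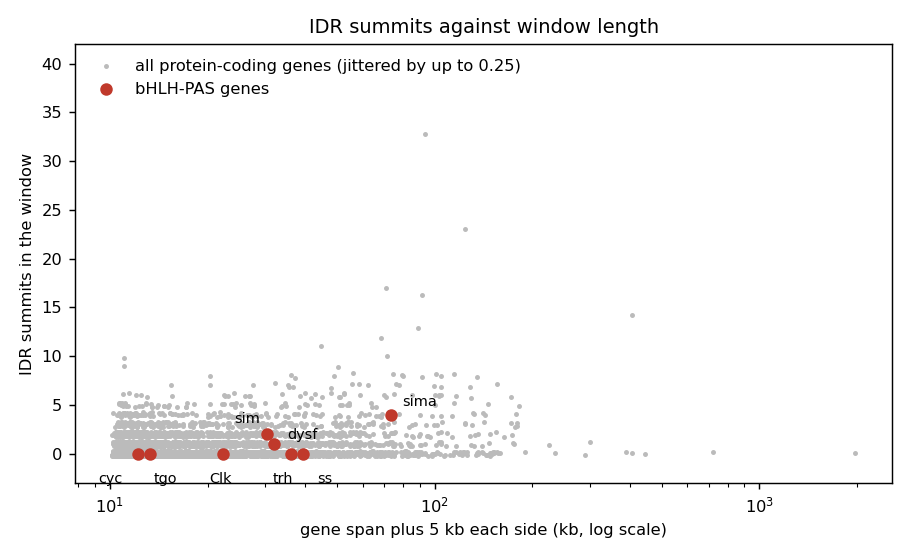
Number of IDR summits in the gene span plus 5 kb each side against the length of that window (kb, log scale) for all 13945 protein-coding genes (grey, jittered) and the 8 bHLH-PAS genes (red). sima stands at 4 summits, sim at 2 and dysf at 1, within the grey cloud of genes of like length, and the other 5 lie at 0.

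The sequences below are the 201 bp around 4 of the 7 IDR summits and around 1 sim region that both replicates ranked high. They are shown because the results at sima, sim and dysf turn on them. They come from RefSeq's copy of the dm6 assembly, plus strand, 5' to 3'. Capitals mark matches, on either strand, to any of the 8 motifs searched.
sima, first intron, chr3R:30061230-30061430: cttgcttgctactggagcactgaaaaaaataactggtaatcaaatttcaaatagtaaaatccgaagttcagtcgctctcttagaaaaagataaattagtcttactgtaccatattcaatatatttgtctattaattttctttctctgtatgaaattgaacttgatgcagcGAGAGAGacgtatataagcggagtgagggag
sima, intron near the middle, chr3R:30092645-30092845: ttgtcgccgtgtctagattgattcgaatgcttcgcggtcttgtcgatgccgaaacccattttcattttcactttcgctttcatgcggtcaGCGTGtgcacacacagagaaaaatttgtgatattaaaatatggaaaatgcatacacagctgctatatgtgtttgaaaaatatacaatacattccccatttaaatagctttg
sim, just past the gene's end, chr3R:13078418-13078618: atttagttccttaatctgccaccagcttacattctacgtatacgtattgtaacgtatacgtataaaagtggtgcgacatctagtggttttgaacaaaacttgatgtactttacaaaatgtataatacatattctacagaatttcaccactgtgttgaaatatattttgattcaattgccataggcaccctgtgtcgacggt
sim, intron, in both replicates but not in the pooled list, chr3R:13068158-13068358: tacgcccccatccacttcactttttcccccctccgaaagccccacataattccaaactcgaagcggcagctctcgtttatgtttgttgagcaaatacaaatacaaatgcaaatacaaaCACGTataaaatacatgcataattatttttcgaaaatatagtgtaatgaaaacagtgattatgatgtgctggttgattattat
dysf, upstream of the gene, chr3R:26099332-26099532: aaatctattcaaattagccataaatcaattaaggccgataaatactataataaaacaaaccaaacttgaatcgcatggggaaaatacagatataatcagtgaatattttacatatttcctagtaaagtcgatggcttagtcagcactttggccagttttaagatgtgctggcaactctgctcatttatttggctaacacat
The 5 windows shown had GC contents of 33.8%, 38.3%, 34.8%, 36.3% and 32.8%, in the order printed. Those around the 7 IDR summits had GC contents from 27.9% to 40.3% with a median of 33.8%, compared with a median of 34.8% and quartiles of 31.3% and 39.8% over all 2567 IDR summits on the arms.

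sima (FBgn0266411, 3R, 30058311 to 30121798, plus strand) encodes the fly HIF-alpha, the oxygen-regulated factor of the hypoxia response. It had the strongest signal and the most summits of the 8 genes in the IDR list. It also had the longest window, and its 0.544 IDR summits per 10 kb were fewer than the 0.659 of sim. sima has 3 annotated TSSs, and all 4 summits lay inside the gene. The signal of a peak is the authors' own value relative to the control, on a scale the sources do not state, and it serves here only to rank peaks within 1 list. The strongest summit (30061330, signal 154, rank 422 of 2567) lay in the first intron, 3019 bp past the first TSS and 1592 bp before the second. A second peak (summit 30061531, signal 67.2, rank 2377) overlapped it. The third (30092745, signal 91.1, rank 1235) lay in an intron 6775 bp before the third TSS. The fourth (30099889, signal 82.5, rank 1482) lay 369 bp past the third TSS, in a noncoding exon. Of these, 2 exceeded the median signal of IDR peaks on the arms, which was 89.1.

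The 4 sima summits did not rest on the replicates in the same way. The strongest peak overlapped a region of signal 105 and rank 434 of 29973 in replicate 1. None of the 29976 regions of replicate 3 touched it. The peak beside it, with the summit at 30061531, also had no replicate 3 region, and replicate 1 had a summit of its own there at rank 3393. The other 2 peaks stood in both replicates at similar ranks. The peak at 30092745 had signal 51.7 (rank 1734) in replicate 1 and 43.4 (rank 1093) in replicate 3. The peak at the third TSS had 52.3 (rank 1687) and 37.9 (rank 1593). These 2 were the only ones of the 7 IDR peaks at the family's genes that ranked within the top 2567 of both replicates. Over all IDR peaks on the arms that share was 50.4%. A missing replicate 3 region was uncommon among IDR peaks, with 100 of 2567 (3.90%) in all and 23 of the 500 strongest (4.60%). The strongest sima peak was also narrow, at 145 bp where 85.5% of IDR peaks were 404 bp wide.

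Below the IDR threshold sima held a field of weaker regions. The pooled and replicate lists hold peaks plus background regions, so a low-ranked region, here or at the other genes, may be background. sima had 20 summits in the pooled list, 26 in replicate 1 and 19 in replicate 3. In the pooled list all but 1 of the 20 lay in introns. Of the 26 in replicate 1, 13 overlapped a replicate 3 region, compared with 54.6% of all replicate 1 regions. Genes of the same length class had a median of 21 pooled, 19 replicate 1 and 20 replicate 3 summits. sima therefore lay near the middle of its class in pooled regions, while 16.2% of the 198 other genes of the class had as many IDR summits or more.

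**Figure D2:**
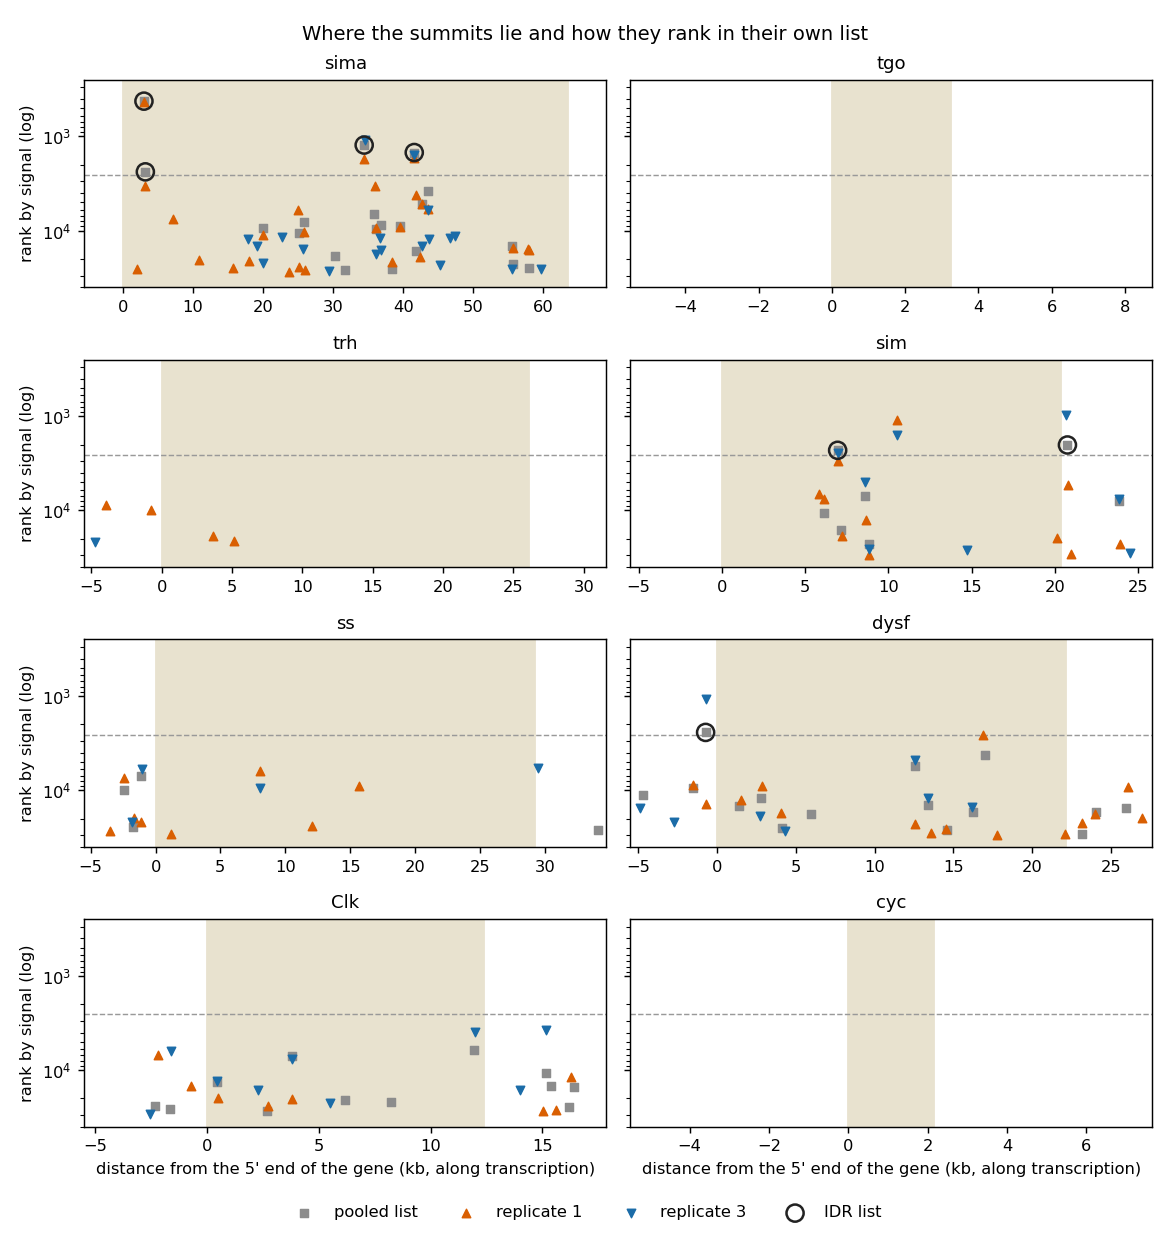
Summits of each gene by distance from the 5' end of the gene along transcription (kb, tan band: gene span) and by rank in their own list (log axis, strongest at the top) for the pooled list (grey squares), replicate 1 (orange), replicate 3 (blue) and the IDR list (open circles). The dashed line marks rank 2567. The panels of tgo and cyc are empty, and the first sima peak has an orange but no blue mark.

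sim (FBgn0004666, 3R, 13057755 to 13078124, plus strand) encodes Single-minded, the regulator of the ventral midline of the nervous system. Its 2 IDR summits were weak and both were more than 1000 bp away from its 3 TSSs. One (13064713, signal 68.1, rank 2300) lay in an intron, 2191 bp past the second TSS. Its partner regions had rank 2972 (signal 40.6) in replicate 1 and rank 2445 (signal 32.8) in replicate 3. The other (13078518, signal 71.9, rank 2019) lay past the 3' end of the gene, 6119 bp from the nearest TSS, which was still that of sim. It was strong in replicate 3 (signal 45.7, rank 978) and much lower in replicate 1 (signal 32.4, rank 5349).

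The only region of sim among the top 2567 of both replicates was absent from the IDR list. Replicate 1 had a summit at 13068258 with signal 64.9 and rank 1090, the strongest of its 11 in the window. Replicate 3 had one 2 bp away, at 13068256, with signal 38.1 and rank 1567. Both lay in an intron 10503 bp (replicate 1 summit) from the 5' end of the gene. The pooled list, which also holds each of the 7 IDR peaks, had no region there, and the cause was not tested. Its 7 summits at sim lay elsewhere. Of the 1341 top-ranked replicate 1 regions that overlapped a top-ranked replicate 3 region, 24 (1.79%) overlapped no pooled region. Of the 11 replicate 1 regions of sim, 8 overlapped a replicate 3 region, compared with 54.6% of all replicate 1 regions.

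dysf (FBgn0039411, 3R, 26076592 to 26098711, minus strand) encodes Dysfusion, known from tracheal fusion cells and from joints of the leg. Its only IDR summit (26099432, signal 66.5, rank 2433) lay 721 bp upstream of its first TSS and was the second of the 7 within 1000 bp of an own TSS, after the sima summit at 369 bp. A summit so close to an own TSS was thus found at 2 of the 8 genes, and over all protein-coding genes at 7.91%. Any annotated TSS of a gene counted, so genes with more TSSs could meet this rule more easily. The 7.91% was not taken by number of TSSs or by window length. The replicates differed widely at the dysf peak. Replicate 3 gave it signal 44.0 and rank 1064, while replicate 1 gave it 22.4 and rank 13863. The strongest replicate 1 region of dysf lay elsewhere, in an intron at 26081815 (signal 42.9, rank 2611), and had no replicate 3 partner. dysf held 15 pooled regions, more than 85.5% of the other genes with windows of 20 to 40 kb, whose class median was 6. Replicate 1 also held 15, more than 84.8% of them, but replicate 3 held 8, more than 59.9%. Of the 15 pooled regions, 5 overlapped regions of both replicates, compared with 51.5% of all pooled regions on the arms. IDR peaks followed just beyond the window, at 26104433 (signal 94.0, rank 1148) and 26104655 (signal 90.3, rank 1252), 5722 and 5944 bp upstream of the gene. Both were stronger than the peak inside it, and the coding TSS nearest to them was that of the neighbour Cipc.

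**Figure D3:**
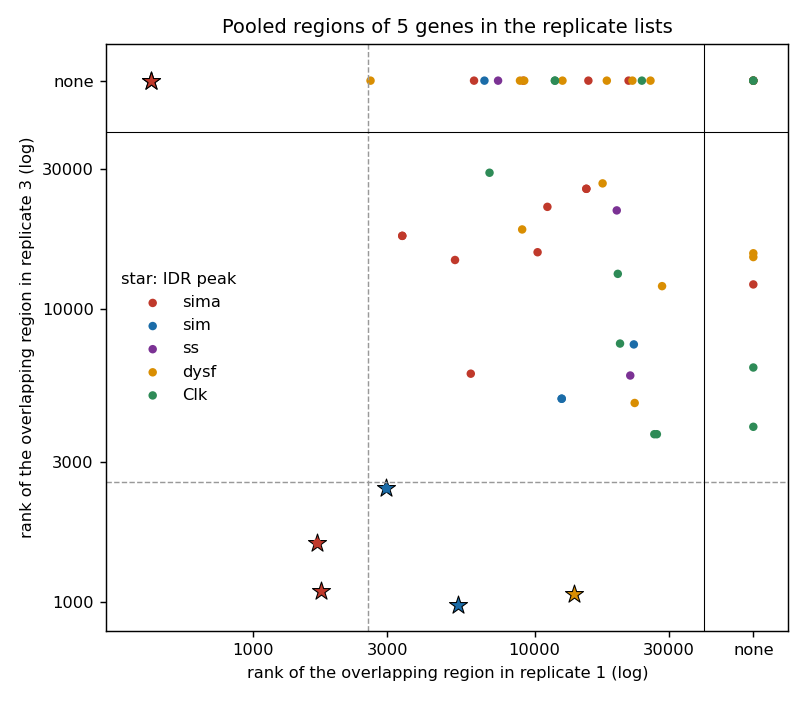
Ranks in replicate 1 and replicate 3 (log axes) of the regions that overlap each of the 58 pooled regions at sima, sim, ss, dysf and Clk. Stars are IDR peaks, the outer strips hold regions with no partner, and dashed lines mark rank 2567. The 2 sima stars at the top left lie on each other, at rank 434 in replicate 1 and with no region in replicate 3.

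ss (FBgn0003513, 3R, 16374434 to 16403690, minus strand) encodes Spineless, the relative of the dioxin receptor that specifies antenna and distal leg. It had no IDR peak, and the nearest lay 43184 bp from the gene. None of its 4 pooled regions lay inside its span of 29257 bp. The strongest (16404833, signal 45.2, rank 7061) lay 1143 bp upstream of the gene. There replicate 3 had signal 25.1 (rank 5931) and replicate 1 had 18.2 (rank 21903). A region inside the gene at 16395659 (signal 30.5, rank 6306 in replicate 1) had a partner in replicate 3 (signal 21.8, rank 9513) but not in the pooled list. Neither replicate ranked any region of ss among its top 2567.

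trh (FBgn0262139, 3L, 366524 to 392633, minus strand) encodes Trachealess, the factor that sets up tracheal and salivary duct fate. It held no region in the pooled list over 36.1 kb. Over all protein-coding genes 50.5% had a pooled region, and among those with windows of 20 to 40 kb 79.8% did, so trh belonged to the remaining 20.2%. Replicate 1 listed 4 regions there, with signals from 18.6 to 27.0 and a best rank of 8736. Replicate 3 listed 1, with signal 16.0 and rank 21853. None of the 5 overlapped a region of the other replicate. Over the arms 54.6% of replicate 1 regions and 52.7% of replicate 3 regions did, so many regions had no partner. The nearest IDR summit lay 23193 bp from the gene.

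Clk (FBgn0023076, 3L, 7763233 to 7775603, minus strand) encodes the Clock subunit that drives transcription of per and tim. It held 12 pooled regions, 8 in replicate 1 and 9 in replicate 3, none of which passed into the IDR list. The class median was 6 in each of the 3 lists. The Clk window also reached 4 other coding genes. Several of the pooled regions lay nearer to the TSS of Hn or CG32371 than to one of Clk. One of them (7760447, signal 38.8, rank 10819) lay 6 bp from the TSS of Hn. The strongest pooled region (7763650, signal 47.4, rank 6148) lay in a noncoding exon near the 3' end of the gene, 2283 bp from the TSS of its neighbour Hn, and matched replicate 3 (signal 28.3, rank 3966) but nothing in replicate 1. The next strongest (7771791, signal 45.1, rank 7110) lay in an intron, 3439 bp from the TSS of CG32371 and 3812 bp from one of Clk. It was low in replicate 1 (signal 19.0, rank 20142) and higher in replicate 3 (signal 23.3, rank 7622). At its first TSS all 3 lists had a weak region 437 to 475 bp into the gene, with ranks between 13172 and 19779. IDR summits lay just outside the window, 6771 bp (signal 74.0, rank 1889) and 8044 bp (signal 112, rank 807) upstream. The nearest coding TSS to both was that of Clk.

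Both partner genes were empty in every list. tgo (FBgn0264075, 3R, 9016773 to 9020022, minus strand) and cyc (FBgn0023094, 3L, 19813770 to 19815938, minus strand) had no summit in the IDR, pooled, replicate 1 or replicate 3 lists within 5 kb. Both are short, with 1 TSS each and 4 other coding genes reaching into the window. A pooled region was found at 43.5% of genes with windows of 10 to 15 kb, so most genes of this size were empty too. The nearest IDR summits lay 12002 bp from tgo, at neur (9032024, signal 193, rank 264), and 36006 bp from cyc (signal 78.0, rank 1676).

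**Figure D4:**
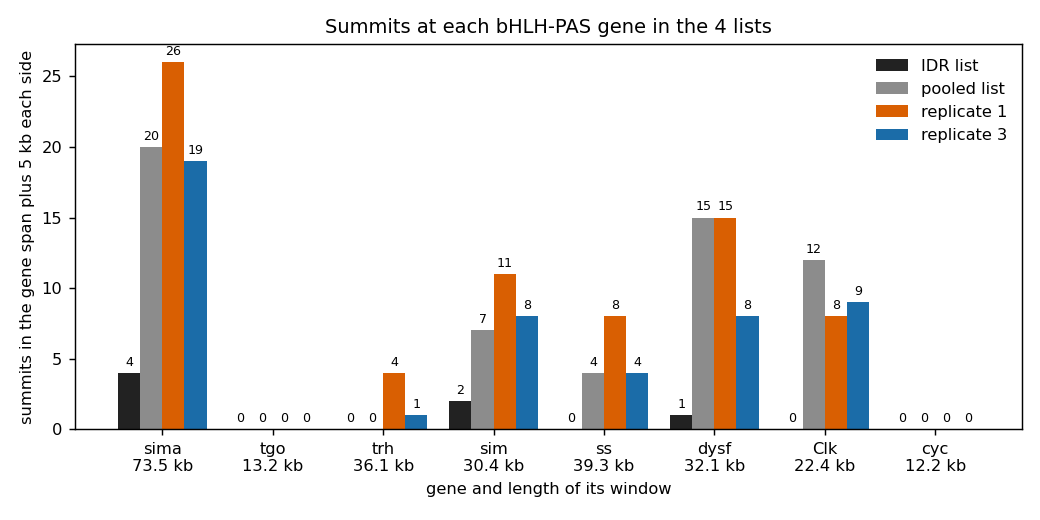
Number of summits in the gene span plus 5 kb each side for each gene in the IDR list, the pooled list, replicate 1 and replicate 3, with the length of the window under each name. sima reaches 26 in replicate 1, trh appears in the replicate lists alone with 4 and 1, and tgo and cyc have 0 in all lists.

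Summed over the 8 genes, the IDR list had 7 summits, the pooled list 58, replicate 1 had 72 and replicate 3 had 49. Introns held 4 of the 7 IDR summits and 37 of the 58 pooled ones. Coding exons held none of the IDR summits and 1 of the pooled ones. The nearest coding TSS was the gene's own for all 7 IDR summits and for 42 of the 58 pooled regions. In the replicate 1 list 33 of 72 regions (45.8%) had a replicate 3 partner, and in the reverse direction 28 of 49 (57.1%), compared with 54.6% and 52.7% over the arms. The 7 IDR summits had a median signal of 71.9, below the lower quartile of 73.4 for all IDR peaks on the arms.

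Of the 4 motifs tied to the family or to Taiman, only GCGTG was found at its 7 IDR summits. Each was listed beforehand under the pairs named here. Whether other pairs of the family share a core was not examined, so a match does not tell which pair could bind. No motif was listed as a site of Dysf with Tgo. The motif GCGTG, listed as the core of the site of Ss with Tgo, was within 100 bp of 3 of the 7 summits, all in sima. Over all IDR summits on the arms it was within 100 bp of 17.1%. In the sequence of the sima intron peak at 30092745 it stands in capitals. ACGTG, listed as the core of the sites of Sima, Sim or Trh with Tgo, was at none of the 7 and at 13.2% of all. It was present in the sim region that the pooled list lacks. Neither the E-box CACGTG bound by Clk with Cyc, which contains ACGTG, nor CACGCG, where Taiman acts with juvenile hormone receptors and which overlaps GCGTG on the other strand, was at any of the 7. They stood at 1.68% and 3.74% of all IDR summits. The nuclear receptor site AGGTCA (3.58% of all), the DREF site TATCGATA (2.45%) and the forkhead motif TGTTTAC (6.78%) were at none either. GAGAGAG, bound by GAGA factor (4.60% of all), was at the strongest sima summit. No match was found at the 2 sim summits or the dysf summit. Both strands were searched throughout, and a match is only a match of letters.

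In the promoters of the 8 genes the motifs were counted in the same way. In 16 promoters, each from 250 bp before to 50 bp after an annotated TSS, ACGTG was in 5, GCGTG in 4 and CACGCG in 2. The shares over 19253 promoters were 23.9%, 28.8% and 7.30%. GAGAGAG was in 2 and TGTTTAC in 3, beside 7.62% and 8.87%. The E-box CACGTG was in none, beside 4.01%. AGGTCA was also in none, beside 5.68%, and so was TATCGATA, beside 7.98%. Both CACGCG promoters were those of ss, whose overlapping windows also held ACGTG and GCGTG, and ss had no IDR peak. A trh promoter, at the TSS at 377316, held 3 matches to ACGTG, and trh had no pooled region. The dysf promoters held none of the 8 motifs, none of which was listed as a site of Dysf.

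IDR summits were also counted at genes that work with the family or are among its known targets. The lists of these genes were drawn up with earlier results of these data known, so the counts are descriptive. Over the 6 lists, 20 of 37 genes had an IDR summit in their window and 11 had one within 1000 bp of a TSS, beside 18.5% and 7.91% of all protein-coding genes. The lists include other relatives of the family, and tai, the tagged gene, is counted in the 20 and in the 11. The windows of the 37 genes were longer than usual, with a median of 23.3 kb compared with 12.2 kb over all genes. In the class of 20 to 40 kb the share of genes with an IDR summit was 39.6%. No rate by length class was taken for summits within 1000 bp of a TSS. The 8 relatives had a median window of 31.2 kb, and 3 of them had a summit. The difference between the lists and the family was not tested.

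In the hypoxia response around sima, 5 of 8 genes had a summit in the window, beside 18.5% of all protein-coding genes. Within 1000 bp of an own TSS it was 4 of 8, beside 7.91%. Hph, the prolyl hydroxylase that marks Sima for destruction, had one 68 bp from its TSS (signal 188, rank 283). Ldh, encoding lactate dehydrogenase, had 4, the strongest with that of Best2 as its nearest coding TSS (signal 211, rank 209). The TOR inhibitor genes chrb (3 summits, strongest 137, 2484 bp from its TSS) and scyl (2 summits, strongest 77.3, 37 bp from its TSS) had some too. Thor, encoding the translation repressor 4E-BP, had 1 (signal 119, 1141 bp from its TSS). Vhl, bnl and btl had none.

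In the circadian loop around Clk and cyc, 4 of 6 genes had summits, beside 18.5% of all protein-coding genes. Within 1000 bp of an own TSS it was 3 of 6, beside 7.91%. vri, a repressor of Clk, had 7 (strongest 257, 4316 bp from its TSS). Pdp1, an activator of Clk, had 4 (strongest 98.1, 4364 bp from its TSS). cwo, a repressor of Clk and Cyc targets, had 4 (strongest 89.1, 2862 bp from its TSS). cry, the light-sensing cryptochrome gene, had 1 (signal 82.8, 152 bp from its TSS). per and tim, the classic targets of Clk and Cyc, had none.

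The shares over all protein-coding genes were again 18.5% in the window and 7.91% within 1000 bp of an own TSS. Among midline genes linked to sim, 5 of 7 had a summit, and 2 of 7 had one within 1000 bp. Those with a summit in the window are named first. They were sli, encoding the axon repellent Slit (signal 120), sog, encoding a BMP antagonist (97.8), spi, encoding an EGF receptor ligand (86.4), Tl, encoding the Toll receptor (strongest 80.4), and aos, encoding an inhibitor of the EGF receptor (75.6). Their strongest summits lay 3727 bp (sli), 3514 bp (sog), 508 bp (spi), 22314 bp (Tl) and 3086 bp (aos) from an own TSS. Among tracheal genes linked to trh, 2 of 7 had a summit, and 0 of 7 had one within 1000 bp. They were knrl (signal 147, 19803 bp from its TSS) and apt, listed under its older name tdf (67.0, 6100 bp). Among antenna and distal leg genes around ss, 3 of 7 had a summit, and 1 of 7 had one within 1000 bp. The 3 were dac (signal 196, 549 bp from its TSS), bab1 (84.3, 7510 bp) and hth (75.0, 30907 bp). Of the remaining bHLH-PAS genes Met and gce, which encode juvenile hormone receptors, and the PAS gene per, none had an IDR summit. tai itself held 33 in its window of 93.4 kb (strongest 346), and it is the gene whose product was tagged.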

How the data were processed

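Per the labels, sonicated chromatin of biological replicates 1 and 3 was precipitated through the GFP tag and sequenced (n = 2). The deposited dm6 lists give intervals in narrowPeak layout, with a signal value and a summit offset per peak. Accompanying text records say that peaks plus background regions were listed for replicate 1, replicate 3 and their pool, all with 1 control alignment, and that these 3 lists gave the IDR list. Which aligner and peak caller the authors used is not given in the sources used here. Signal was used only to rank peaks within a list. Read depth is unknown, and intervals based on it are omitted.

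Summits on the arms 2L, 2R, 3L, 3R, 4 and X were counted in gene spans of Ensembl release 115 (BDGP6, the assembly of dm6) plus 5 kb each side, and against the TSSs of all transcripts, with Python 3.11.15, numpy 2.4.6 and pandas 2.3.3. Regions of 2 lists were paired by an overlap of 1 bp or more, taking the strongest. The counting was checked on planted summits. Positions count from 1 on dm6, and lists on dm3 were set aside. The members, gene lists and motifs were chosen with earlier results of these data known. The text names all 8 members, genes with the TSS nearest to their IDR summits, and up to 4 genes of each pathway list by signal. Others were added after their values were seen: the fifth genes of the hypoxia and midline lists, list genes without a summit, neighbours named for the nearest peaks, the second sima sequence, and the sim region missing from the pooled list.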

Additional observations from a re-analysis of the deposited data

How the results depend on the processing

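With only 2 replicates and no test, these alternatives show how far the counts move. The 3 genes with an IDR summit became 1 with only the 1283 strongest IDR peaks, which left sima. Such genes numbered 2 with the gene span alone, where dysf dropped out. They numbered 3 with 1 kb on each side and 4 with 10 kb, which added Clk. The 7 summits became 11 with 10 kb on each side, through peaks near dysf and Clk, and 2 with those 1283. Counting summits closer than 300 bp as 1 left 6, of which sima held 3. The 2 genes with a summit within 1000 bp of an own TSS became 1 at 500 bp, 1 with only the 5' end of each gene, and 0 with those 1283. Of the 7 peaks, 2 ranked within the top 2567 of both replicates, beside 50.4% of all IDR peaks. In both whole lists 5 were found, beside 95.7% of all. With replicate lists cut at 5134 regions it was 3, beside 74.8%, and at 1283 regions 0, beside 29.9%. The share of all genes with a summit, 18.5%, was 6.33% for the gene span alone, 11.6% with 1 kb, 27.0% with 10 kb and 12.2% with those 1283. It was 17.3% with only peaks found in both whole replicate lists, a setting chosen after seeing the data, under which 3 genes and 5 summits were kept. When either replicate's 2567 strongest regions replaced the IDR list, the number of genes ranged from 2 to 3, summits from 4 to 6, genes with a summit near an own TSS from 1 to 2, and the share of all genes from 19.3% to 21.1%. dysf had no summit by replicate 1 alone. No paired analysis was possible because there is 1 group. Depth limits what the absence of a region at tgo, trh or cyc can show, and it is unknown here.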
